A study of Mus musculus with 12 samples.

Results

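The genes of the mitochondrial respiratory chain and ATP synthase were followed in cultured mouse dendritic cells by RNA sequencing. They were chosen by name: protein-coding genes whose symbols begin with Ndufa, Ndufb, Ndufc, Ndufs, Ndufv, Uqcr, Cox4i, Cox5, Cox6, Cox7, Cox8 or Atp5, the 4 succinate dehydrogenase genes Sdha, Sdhb, Sdhc and Sdhd, cytochrome c1 (Cyc1), and the 13 protein-coding genes of mitochondrial DNA. The rule found 108 of the 31054 gene identifiers counted, 95 of them nuclear and 13 mitochondrial. The rule itself uses names only. The prefix also takes in 8 Ndufaf genes, which encode assembly factors of complex I and no subunits, and they are given as a group of their own. Atp5o has a second identifier, which had no counts.

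The cells were grown from bone marrow of wild-type C57BL6 mice and harvested on day 7, after live cells bearing CD11c, the integrin alpha chain typical of dendritic cells, had been enriched. The 4 groups were tolerogenic cells made with vitamin D3 and interleukin 10 and then stimulated with lipopolysaccharide (TolDC with LPS), the same cells without LPS (TolDC), control dendritic cells with LPS (BMDC with LPS) and control cells without it (BMDC), with 3 libraries each. LPS is a component of the bacterial outer membrane that is sensed through Toll-like receptor 4. The sources used here give neither the doses of the 3 agents nor the length of the LPS stimulation. Nothing says that libraries of a group came from separate cultures or mice, so p-values measure the spread between these libraries, which may be technical.

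The respiratory chain passes electrons from NADH (complex I) and succinate (complex II) through ubiquinone, complex III and cytochrome c to oxygen (complex IV), and pumps protons that drive ATP synthase. Complex II is wholly nuclear-encoded, while the other complexes combine nuclear subunits with proteins made from mitochondrial DNA. Dendritic cells and macrophages stimulated with LPS are known to turn towards glycolysis, and vitamin D3-treated dendritic cells are known for a more oxidative metabolism.

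The 12 libraries held 21844405 to 41764975 reads assigned to genes. Levels are given as CPM (counts scaled to library totals, then by library composition), and per kilobase of exon where genes are compared. Exon length counts each base in an exon of any annotated transcript once, so comparisons per kilobase depend on the annotation. Libraries numbered 1 stood apart in all 4 groups. The chi-square per gene was 1.35 to 2.30 between libraries 2 and 3 of a group and 5.16 to 11.6 for pairs with library 1, so libraries 2 and 3 also differed by more than sampling noise, which would give about 1. Dendritic cell markers varied widely in level. Cd74, the class II invariant chain, had 4215 to 8085 CPM, and Itgax, which encodes CD11c, 1357 to 2091 CPM (group means). Batf3 had 49.8 to 167 CPM, Ciita 26.5 to 49.9 CPM and Zbtb46 16.4 to 64.1 CPM. Of the 10 markers, 5 rose and 3 fell with LPS in TolDC, and 9 rose and 1 fell in BMDC. In TolDC against BMDC, 3 were higher and 6 lower with LPS, and 5 higher and 3 lower without it. These and the marker counts below stand beside large shares of all 13141 genes tested. With LPS, 35.4% of all genes rose and 35.9% fell in TolDC, and 36.7% rose and 36.4% fell in BMDC. In TolDC against BMDC, 34.3% were higher and 33.7% lower with LPS, and 32.0% and 30.4% without it. Flt3, a receptor of conventional dendritic cells, was at most 1.38 CPM in any group mean. The 7 lymphocyte markers summed to 0.635 to 5.15 CPM and the 7 erythroid markers to 0.674 to 6.07 CPM. Neutrophil markers summed to 3061 to 4028 CPM in TolDC with LPS, 623 to 1189 CPM in TolDC, 1398 to 3334 CPM in BMDC with LPS and 755 to 2827 CPM in BMDC. Much of the sums with LPS was Lcn2, at 2701 CPM in TolDC with LPS against 55.7 CPM in TolDC. In BMDC it had 1466 CPM with LPS against 154 CPM without (group means). S100a8 moved the other way, with 170 against 228 CPM in TolDC and 404 against 767 CPM in BMDC. Of the 13 neutrophil markers, 2 rose and 1 fell with LPS in TolDC, and 1 rose and 4 fell in BMDC. In TolDC against BMDC 1 was higher and 3 lower with LPS, and 1 higher and 7 lower without it. Macrophage markers summed to 1341 to 1573 CPM in TolDC with LPS, 837 to 859 CPM in TolDC, 813 to 955 CPM in BMDC with LPS and 806 to 831 CPM in BMDC. Of the 9 tested, 4 rose and 4 fell with LPS in TolDC, and 2 rose and 7 fell in BMDC, and in TolDC against BMDC 3 were higher and 5 lower with LPS and 3 higher and 6 lower without it. Mast cell and basophil markers summed to 51.3 to 246 CPM in TolDC with LPS, 68.0 to 264 CPM in TolDC, 31.1 to 149 CPM in BMDC with LPS and 49.8 to 132 CPM in BMDC, with at most 1 of the 7 tested called in any comparison and with Mcpt1, Mcpt4 and Tpsb2 at 0 in 5, 8 and 6 of the 12 libraries. The part of these marker lists in the results below was not tested.

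Most genes of the chain fell with LPS in both cell types. Of the 108 genes, 97 passed the filter on low counts, 89 of them nuclear. In TolDC, 61 of the 97 were lower and 13 higher with LPS, where 35.9% and 35.4% of all 13141 genes tested were called in those directions. With library size as the scaling, 71 were lower and 7 higher in TolDC. In BMDC, 78 were lower and 6 higher, against 36.4% and 36.7% of all genes. The median log2 change of the nuclear genes was −0.20 in TolDC and −0.45 in BMDC, while the median of all genes tested was −0.0017 in TolDC and −0.00029 in BMDC. Changes of at least 2-fold were rare, with 4 genes in TolDC and 3 in BMDC. The genes called lower in both cell types numbered 57, which is 93.4% of those in TolDC and 73.1% of those in BMDC. In bulk RNA, fewer cells of a type and less RNA per cell cannot be told apart. Without the 4 libraries numbered 1, 69 genes were lower and 14 higher in TolDC, and 81 lower and 7 higher in BMDC.

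**Figure D1:**
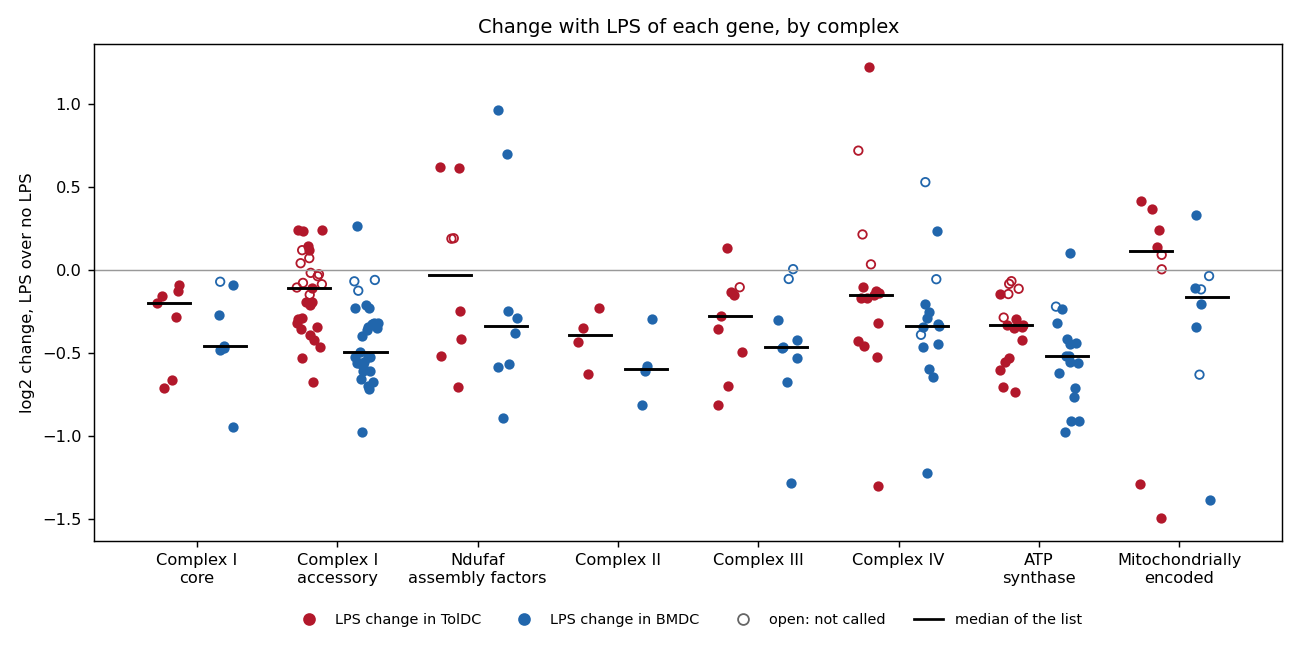
Log2 change with LPS of each gene tested (vertical axis), by complex, with TolDC (red, left of each pair) and BMDC (blue, right). Filled points were called, open points were not, and black bars are list medians; all 4 complex II genes lie below 0 in both cell types, while the mitochondrially encoded genes lie on both sides.

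Cell division genes moved with LPS as well. The 12 proliferation markers summed to 73.1 to 99.2 CPM in TolDC with LPS against 387 to 393 CPM in TolDC, and to 112 to 166 CPM in BMDC with LPS against 251 to 312 CPM in BMDC. All 12 were called lower with LPS in TolDC and 11 of 12 in BMDC, and none was at 0. Their part in the fall of the respiratory genes was not tested.

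The fall was smaller in TolDC for most of these genes. In the test of the difference between the LPS responses, taken as the LPS change in TolDC minus that in BMDC, 57 of 97 genes were called higher and 6 lower, against 20.4% and 24.0% of all genes tested. The 6 called lower became 3 when the fit left out BMDC library 2, BMDC with LPS library 1, TolDC library 1 or 3, or TolDC with LPS library 2 or 3, and 1 when libraries 2 and 3 were summed, an alternative chosen after seeing the data. The median difference was 0.19 for nuclear genes and 0.32 for mitochondrially encoded ones, with −0.0095 for all genes. Accessory subunits of complex I made up 21 of the 57, out of 29 tested, and none of them was called lower. Without the libraries numbered 1, 62 genes were called higher and 6 lower.

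With LPS, most genes of the chain were higher in TolDC than in BMDC. Of 97 genes, 64 were higher and 11 lower in TolDC, against 34.3% and 33.7% of all genes tested. Without LPS, 22 were higher and 30 lower, against 32.0% and 30.4%. The nuclear median was 0.22 with LPS and 0.0021 without it, where all genes had 0.024 and 0.0091. Of the 64 genes higher in TolDC with LPS, 19 were also higher without LPS (29.7% of the 64 and 86.4% of the 22). A further 9 were lower without LPS, namely Cox5b, Ndufa9, Ndufb3, Ndufs1, Ndufs4, Sdhc, mt-Cytb, mt-Nd2 and mt-Nd4. Without the libraries numbered 1, 61 were higher and 11 lower with LPS, and 26 higher and 35 lower without it. Proliferation markers moved here too, with 9 of 12 lower in TolDC than in BMDC with LPS and 8 of 12 higher without LPS.

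**Figure D2:**
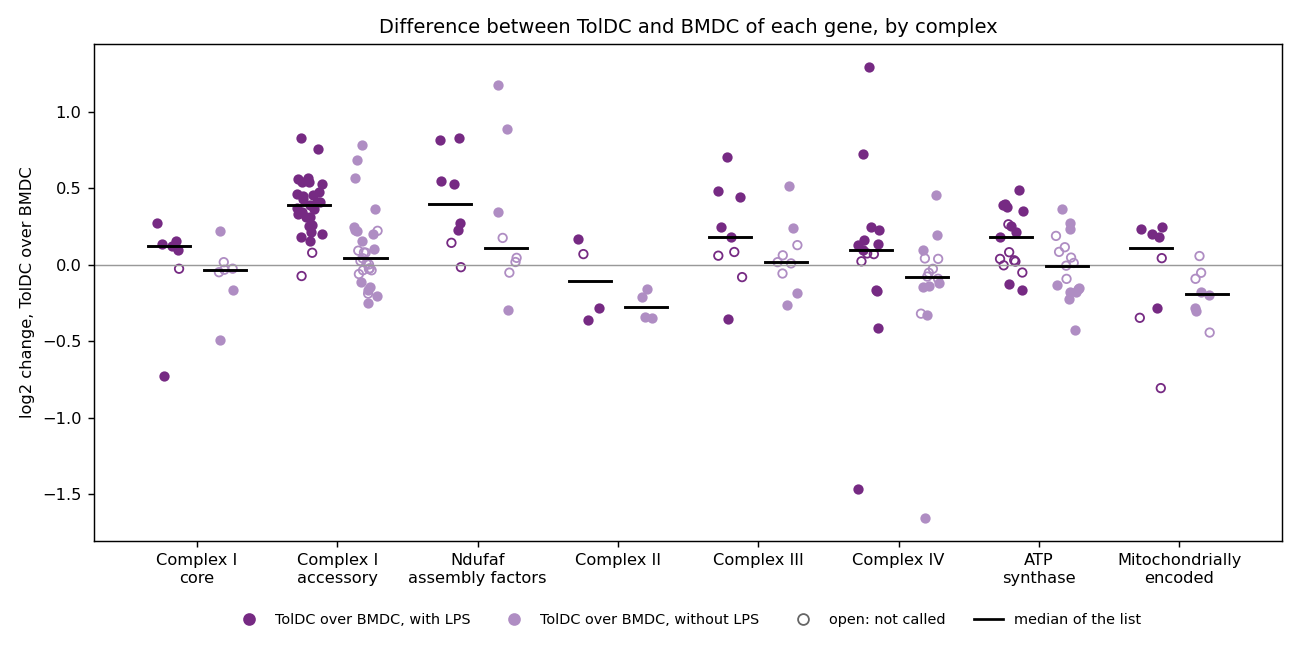
Log2 change of TolDC over BMDC of each gene tested (vertical axis), by complex, with LPS (dark, left of each pair) and without LPS (light, right). Filled points were called and black bars are medians; the accessory subunits of complex I have a median of 0.39 with LPS and 0.043 without it.

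Complex I, the NADH dehydrogenase, has 7 nuclear core subunits that carry its flavin and iron-sulphur clusters. With LPS all 7 fell in TolDC (median −0.20) and 6 of 7 fell in BMDC (median −0.46), against 35.9% and 36.4% of all genes. Ndufs1, the largest core subunit, of the NADH-oxidising module, had 77.8, 74.8 and 75.5 CPM in TolDC with LPS and 124, 121 and 116 CPM in TolDC, against 70.8, 68.01 and 70.97 CPM in BMDC with LPS and 136, 138 and 132 CPM in BMDC. LPS lowered it in both cell types without overlap between libraries (−0.66 ± 0.038, adjusted p = 1.25e-11, in TolDC; −0.95 ± 0.039, adjusted p = 6.39e-14, in BMDC). The fall was larger in BMDC, with a difference of 0.29 ± 0.054, adjusted p = 0.00029. Ndufv2, an iron-sulphur protein of the same module, had 97.9, 96.1 and 92.1 CPM in TolDC with LPS and 107, 109 and 113 CPM in TolDC, against 81.2, 75.7 and 79.2 CPM in BMDC with LPS and 95.4, 110.2 and 119 CPM in BMDC. Its log2 change with LPS was −0.20 in TolDC and −0.46 in BMDC, both called, and it was higher in TolDC than in BMDC with LPS (0.28 ± 0.061, adjusted p = 0.000756).

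Ndufs8, an iron-sulphur protein near the ubiquinone site, was lower in TolDC in both conditions. With LPS it was the 1 core subunit called lower in TolDC, and without LPS Ndufs1 was called lower too. It had 54.5, 50.1 and 50.3 CPM in TolDC with LPS and 83.96, 83.1 and 87.04 CPM in TolDC, against 93.4, 79.3 and 83.5 CPM in BMDC with LPS and 122, 114 and 122 CPM in BMDC. Every TolDC library lay below every BMDC library of the same stimulation (log2 change −0.73 ± 0.054, adjusted p = 1.04e-09, with LPS; −0.49 ± 0.053, adjusted p = 1.83e-07, without). It was the core subunit with the largest difference between the cell types in either condition. It also fell more with LPS in TolDC (−0.71 ± 0.054) than in BMDC (−0.48 ± 0.053), a difference of −0.23 ± 0.076, adjusted p = 0.0176, whose call was lost without BMDC replicate 2 (−0.20), BMDC with LPS replicate 1 (−0.16), TolDC replicate 3 (−0.21) or TolDC with LPS replicate 3 (−0.21). Ndufs7, its neighbour in the same module, had 56.1, 54.1 and 56.98 CPM in TolDC with LPS and 58.3, 64.6 and 63.9 CPM in TolDC, against 51.2, 49.9 and 51.3 CPM in BMDC with LPS and 53.6, 50.6 and 56.2 CPM in BMDC. Ndufs7 was higher in TolDC without LPS (0.22 ± 0.048, adjusted p = 0.000543) and fell with LPS in TolDC (−0.16 ± 0.047, adjusted p = 0.00552), while in BMDC its change with LPS was −0.071 ± 0.049, adjusted p = 0.196, which was not called.

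The 29 accessory subunits of complex I surround the core and are needed for its assembly and stability. In TolDC 14 fell and 5 rose with LPS (median −0.11), against 35.9% and 35.4% of all genes. In BMDC 25 fell and 1 rose (median −0.50), against 36.4% and 36.7%. With LPS, 27 of 29 were higher in TolDC than in BMDC and none was lower (median 0.39), against 34.3% and 33.7% of all genes. Without LPS 10 were higher and 5 lower (median 0.043), against 32.0% and 30.4%. The 2 without a call with LPS were Ndufa6 and Ndufb6. The 5 that rose with LPS in TolDC were Ndufa1, Ndufa2, Ndufa7, Ndufab1 and Ndufs5.

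Ndufa5, a subunit of the ubiquinone module, had 26.01, 26.3 and 25.3 CPM in TolDC with LPS and 32.3, 34.9 and 32.1 CPM in TolDC, against 13.7, 14.8 and 15.4 CPM in BMDC with LPS and 17.9, 18.99 and 20.9 CPM in BMDC. TolDC libraries were above all BMDC libraries with LPS (0.83 ± 0.065, adjusted p = 2.11e-09) and without it (0.78 ± 0.063, adjusted p = 3.26e-09), and LPS lowered the gene in both (−0.36 and −0.40). Ndufab1, the mitochondrial acyl carrier protein, which also serves fatty acid synthesis, had 32.3, 30.5 and 30.5 CPM in TolDC with LPS and 26.9, 28.4 and 28.9 CPM in TolDC, against 20.5, 21.1 and 21.3 CPM in BMDC with LPS and 15.9, 18.5 and 17.9 CPM in BMDC. It was the accessory subunit that rose with LPS in BMDC (0.26 ± 0.062, adjusted p = 0.000892) and was higher in TolDC in both conditions (0.57 ± 0.059, adjusted p = 8.05e-08, with LPS; 0.69 ± 0.060, adjusted p = 1.13e-08, without). Its rise with LPS in TolDC (0.15 ± 0.057, adjusted p = 0.0275) was lost without the 4 libraries numbered 1 (0.089), TolDC replicate 1 (0.12) or TolDC with LPS replicate 1 (0.13), and with library size as the scaling. Ndufa7, of the NADH-oxidising module, had 78.2, 75.8 and 73.999 CPM in TolDC with LPS and 58.7, 65.2 and 68.6 CPM in TolDC, against 49.9, 52.3 and 52.5 CPM in BMDC with LPS and 48.5, 53.3 and 60.6 CPM in BMDC. It rose with LPS in TolDC (0.24 ± 0.067, adjusted p = 0.00426), a call lost with library size as the scaling, and did not pass the test in BMDC (−0.069 ± 0.070, adjusted p = 0.388).

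Ndufb11, an X-linked subunit of the membrane arm, had 50.7, 51.3 and 51.7 CPM in TolDC with LPS and 76.1, 81.1 and 88.6 CPM in TolDC, against 34.97, 39.4 and 37.9 CPM in BMDC with LPS and 69.3, 74.3 and 77.7 CPM in BMDC. Among accessory subunits it had the largest fall with LPS in both TolDC (−0.68 ± 0.056, adjusted p = 3.04e-09) and BMDC (−0.98 ± 0.059, adjusted p = 2.5e-11). Ndufa6, which binds the acyl carrier protein, had 69.9, 69.1 and 71.8 CPM in TolDC with LPS and 76.2, 83.6 and 81.9 CPM in TolDC, against 65.4, 65.8 and 68.6 CPM in BMDC with LPS and 93.99, 94.6 and 99.2 CPM in BMDC. It was lower in TolDC than in BMDC without LPS (−0.25 ± 0.042, adjusted p = 3.98e-05), and with LPS its difference was 0.079 ± 0.043, adjusted p = 0.109, which was not called. Ndufb4, of the distal membrane arm, had 5.16, 3.73 and 4.73 CPM in TolDC with LPS and 4.80, 4.45 and 5.14 CPM in TolDC, against 3.62, 3.13 and 3.33 CPM in BMDC with LPS and 4.69, 5.87 and 5.90 CPM in BMDC. Its LPS response differed most among the accessory subunits (0.62 ± 0.19, adjusted p = 0.013), at a low level. Ndufb4 was higher in TolDC with LPS (0.43 ± 0.14, adjusted p = 0.0103), which did not pass when the fit left out TolDC with LPS replicate 1 (0.33).

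The 8 Ndufaf assembly factors were called in both directions. In TolDC 2 rose and 4 fell with LPS, against 35.4% and 35.9% of all genes. In BMDC 2 rose and 6 fell, against 36.7% and 36.4%. The 2 that rose in both were Ndufaf1, a core member of the assembly complex of the membrane arm, and Ndufaf3, which works with Ndufaf4 on the ubiquinone module. Ndufaf1 had 8.52, 7.87 and 9.49 CPM in TolDC with LPS and 6.11, 5.10 and 5.71 CPM in TolDC, against 4.40, 4.79 and 5.48 CPM in BMDC with LPS and 1.76, 2.66 and 3.14 CPM in BMDC. Ndufaf3 had 17.2, 16.7 and 18.3 CPM in TolDC with LPS and 10.7, 11.7 and 11.6 CPM in TolDC, against 9.18, 10.1 and 10.5 CPM in BMDC with LPS and 5.57, 6.48 and 6.24 CPM in BMDC. Both were also higher in TolDC than in BMDC, by 0.83 ± 0.14 and 0.82 ± 0.078 with LPS (adjusted p = 4.03e-05 and 2.86e-08). Without LPS the differences were 1.17 ± 0.16 and 0.89 ± 0.085 (adjusted p = 4.03e-06 and 3.64e-08), so that the 4 groups of Ndufaf1 stood in the order TolDC with LPS, TolDC, BMDC with LPS and BMDC, with TolDC and BMDC with LPS overlapping. In contrast Ndufaf4 fell with LPS. It had 14.1, 13.9 and 14.3 CPM in TolDC with LPS and 23.2, 22.4 and 23.3 CPM in TolDC, against 12.3, 12.2 and 11.6 CPM in BMDC with LPS and 17.1, 18.96 and 18.2 CPM in BMDC, with changes of −0.70 ± 0.058, adjusted p = 2.79e-09, in TolDC and −0.59 ± 0.062, adjusted p = 7.47e-08, in BMDC.

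Ndufaf8, the partner of Ndufaf5, had 11.5, 12.3 and 12.3 CPM in TolDC with LPS and 16.02, 17.7 and 18.1 CPM in TolDC, against 7.70, 8.85 and 8.23 CPM in BMDC with LPS and 13.7, 16.6 and 15.6 CPM in BMDC. It fell with LPS less in TolDC (−0.52 ± 0.080) than in BMDC (−0.89 ± 0.086), a difference of 0.37 ± 0.12, adjusted p = 0.0152 whose call was lost without BMDC replicate 2 (0.31). Ndufaf7, an assembly factor with methyltransferase activity, had 10.7, 11.97 and 11.1 CPM in TolDC with LPS and 10.7, 8.94 and 10.01 CPM in TolDC, against 9.96, 11.1 and 9.57 CPM in BMDC with LPS and 11.996, 11.3 and 13.2 CPM in BMDC. Its LPS responses differed (0.44 ± 0.12, adjusted p = 0.0078), with changes of 0.19 ± 0.087 in TolDC, which was not called, and −0.25 ± 0.089 in BMDC, whose call was lost without BMDC replicate 3 (−0.19) or BMDC with LPS replicate 3 (−0.21). Ndufaf2, a paralogue of the subunit Ndufa12, had 8.78, 8.98 and 8.67 CPM in TolDC with LPS and 7.14, 8.37 and 7.65 CPM in TolDC, against 6.37, 6.59 and 5.35 CPM in BMDC with LPS and 8.15, 7.42 and 6.80 CPM in BMDC. It was higher in TolDC with LPS (0.53 ± 0.098, adjusted p = 0.000113), but 64.1% of the 50-base windows of its transcripts also occur in other annotated genes, so its level is uncertain.

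Complex II, succinate dehydrogenase, oxidises succinate to fumarate and belongs to both the respiratory chain and the citric acid cycle. All 4 of its genes fell with LPS in both cell types, against 35.9% of all genes in TolDC and 36.4% in BMDC. All 4 were lower in TolDC than in BMDC without LPS, against 30.4% of all genes. Sdha, the flavoprotein that holds the succinate site, had 252, 239 and 245 CPM in TolDC with LPS and 389.9, 384 and 367 CPM in TolDC, against 338, 299 and 310.5 CPM in BMDC with LPS and 505, 473 and 471 CPM in BMDC. The 4 groups did not overlap. LPS lowered Sdha in both cell types (−0.63 ± 0.046, adjusted p = 4.81e-10, in TolDC; −0.61 ± 0.046, adjusted p = 6.36e-10, in BMDC), and the difference between the responses was −0.017 ± 0.065, adjusted p = 0.857. TolDC had less Sdha than BMDC both with LPS (−0.36 ± 0.046, adjusted p = 1.41e-06) and without it (−0.34 ± 0.046, adjusted p = 2.98e-06). Sdhd, a membrane anchor, followed the same pattern, with 147, 146 and 146 CPM in TolDC with LPS and 171, 172 and 169.7 CPM in TolDC, against 185, 173 and 175 CPM in BMDC with LPS and 222, 217 and 215 CPM in BMDC. Its differences between TolDC and BMDC were −0.28 ± 0.036, adjusted p = 1.24e-06, with LPS and −0.35 ± 0.036, adjusted p = 8.62e-08, without.

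Sdhb, the iron-sulphur subunit, had 91.1, 91.8 and 90.5 CPM in TolDC with LPS and 117, 116 and 114 CPM in TolDC, against 87.3, 85.4 and 87.7 CPM in BMDC with LPS and 132, 128 and 129 CPM in BMDC. Sdhc, the other anchor, had 113, 106 and 107 CPM in TolDC with LPS and 151, 148 and 144 CPM in TolDC, against 96.5, 94.97 and 99.6 CPM in BMDC with LPS and 174, 169 and 169 CPM in BMDC. LPS lowered both less in TolDC (−0.35 ± 0.034 for Sdhb and −0.44 ± 0.038 for Sdhc) than in BMDC (−0.58 ± 0.034 and −0.81 ± 0.038), with differences of 0.23 ± 0.048, adjusted p = 0.000769, for Sdhb and 0.38 ± 0.053, adjusted p = 1.35e-05, for Sdhc. With LPS, Sdhc was higher in TolDC (0.17 ± 0.038, adjusted p = 0.000817) while Sdha and Sdhd were lower, so the 4 genes of the complex did not keep 1 ratio between the cell types.

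The promoter of Sdha is shown because Sdha differed between all 4 groups and because its window held 3 copies of 1 motif, a number that Ndufb4 shared and no other matched member reached. It is the 300 bases at chr13:74350191-74350490 on the minus strand (GRCm38.p6, from RefSeq), in the direction of transcription. Capitals mark the site of nuclear respiratory factor 1 (NRF1), searched as GCGCA, any base (N), then GCGC.
Sdha: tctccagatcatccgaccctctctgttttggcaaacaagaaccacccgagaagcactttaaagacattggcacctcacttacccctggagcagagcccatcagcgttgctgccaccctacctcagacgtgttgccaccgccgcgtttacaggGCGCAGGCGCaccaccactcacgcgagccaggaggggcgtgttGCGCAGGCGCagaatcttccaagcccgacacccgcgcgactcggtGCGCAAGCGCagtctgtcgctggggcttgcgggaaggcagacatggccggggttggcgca

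Complex III, the cytochrome bc1 complex, has 9 nuclear genes here. With LPS 7 fell and 1 rose in TolDC, against 35.9% and 35.4% of all genes. In BMDC 7 fell and none rose, against 36.4% and 36.7%. Uqcr11, a small subunit, had the largest fall of any nuclear member with at least 5 CPM in BMDC. It had 47.9, 46.2 and 50.2 CPM in TolDC with LPS and 79.1, 85.9 and 88.6 CPM in TolDC, against 33.8, 35.8 and 33.9 CPM in BMDC with LPS and 81.2, 81.5 and 89.6 CPM in BMDC. The libraries of TolDC with LPS lay above those of BMDC with LPS, while TolDC and BMDC overlapped. The LPS change of Uqcr11 was −0.81 ± 0.051, adjusted p = 4.75e-11, in TolDC and −1.29 ± 0.054, adjusted p = 8.86e-14, in BMDC, and the difference between the responses was 0.47 ± 0.074, adjusted p = 4.19e-05. Uqcr10, another small subunit, which sits beside cytochrome c1, had 123, 110.4 and 114 CPM in TolDC with LPS and 105, 109 and 102 CPM in TolDC, against 71.5, 70.4 and 71.2 CPM in BMDC with LPS and 74.3, 70.01 and 77.2 CPM in BMDC. All TolDC libraries lay above all BMDC libraries (0.71 ± 0.047, adjusted p = 1.51e-10, with LPS; 0.52 ± 0.047, adjusted p = 1.64e-08, without). Its rise with LPS in TolDC (0.13 ± 0.046, adjusted p = 0.0137) was lost without TolDC replicate 3 (0.11) or TolDC with LPS replicate 1 (0.10), and with library size as the scaling.

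Uqcrfs1, the Rieske iron-sulphur protein, had 112, 105 and 103 CPM in TolDC with LPS and 173, 174 and 174 CPM in TolDC, against 146, 131 and 133 CPM in BMDC with LPS and 198, 193 and 201 CPM in BMDC. It was lower in TolDC in both conditions (−0.36 ± 0.044, adjusted p = 8.48e-07, with LPS; −0.18 ± 0.043, adjusted p = 0.00106, without). LPS lowered it in TolDC (−0.70 ± 0.044) and in BMDC (−0.53 ± 0.043), and the call of the difference between the responses (−0.17 ± 0.061, adjusted p = 0.0298) was lost without BMDC replicate 2 (−0.15), BMDC with LPS replicate 1 (−0.12), TolDC replicate 1 (−0.17), TolDC replicate 2 (−0.17), TolDC replicate 3 (−0.17), TolDC with LPS replicate 2 (−0.16) or TolDC with LPS replicate 3 (−0.14). Uqcrc1, a core protein of the matrix side, had 171, 161 and 167 CPM in TolDC with LPS and 232, 237 and 235 CPM in TolDC, against 182, 171 and 176 CPM in BMDC with LPS and 280.2, 282 and 283 CPM in BMDC. It fell in TolDC (−0.49 ± 0.037, adjusted p = 5.42e-10) and BMDC (−0.68 ± 0.037, adjusted p = 4.69e-12) with LPS and was lower in TolDC without it (−0.26 ± 0.036, adjusted p = 4.37e-06).

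The promoters of Uqcr11 and Uqcr10 are shown because these neighbours in name differed in their LPS change in TolDC. Uqcr11 fell (−0.81) and Uqcr10 did not (0.13). Both are 300-base windows on the minus strand (GRCm38.p6, from RefSeq), at chr10:80406772-80407071 for Uqcr11 and chr11:4704295-4704594 for Uqcr10. Capitals in Uqcr11 mark the letters CCGGAAG, the core of an ETS site as bound by GABPA. No letters of the 4 motifs searched were found in the window of Uqcr10.
Uqcr11: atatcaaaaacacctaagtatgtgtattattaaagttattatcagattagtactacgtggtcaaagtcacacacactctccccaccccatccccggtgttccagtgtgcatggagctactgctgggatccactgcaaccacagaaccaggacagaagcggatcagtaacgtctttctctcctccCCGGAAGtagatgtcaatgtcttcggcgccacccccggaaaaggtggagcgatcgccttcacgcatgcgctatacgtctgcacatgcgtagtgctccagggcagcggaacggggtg
Uqcr10: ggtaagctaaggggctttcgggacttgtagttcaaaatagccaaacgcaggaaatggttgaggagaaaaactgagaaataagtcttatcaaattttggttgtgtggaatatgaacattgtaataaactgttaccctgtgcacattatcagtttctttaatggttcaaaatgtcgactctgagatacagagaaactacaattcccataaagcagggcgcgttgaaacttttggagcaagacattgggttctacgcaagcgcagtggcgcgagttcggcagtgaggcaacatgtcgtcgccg

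Promoter windows of 250 bases before to 50 after the start were found for 74 of the 94 nuclear symbols. Both strands were searched for 4 sets of letters. The NRF1 letters were in 19 of the 74 genes (25.7%, against 5.19% of all 27025 genes with a window). CCGGAAG (ETS) was in 18 (24.3%, against 9.93%), AAGATGGCG (YY1) in 8 (10.8%, against 1.64%) and TNAAGGTCA (oestrogen-related receptors) in 3 (4.05%, against 1.43%). A match is a description of the letters and not a bound site.

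**Figure D3:**
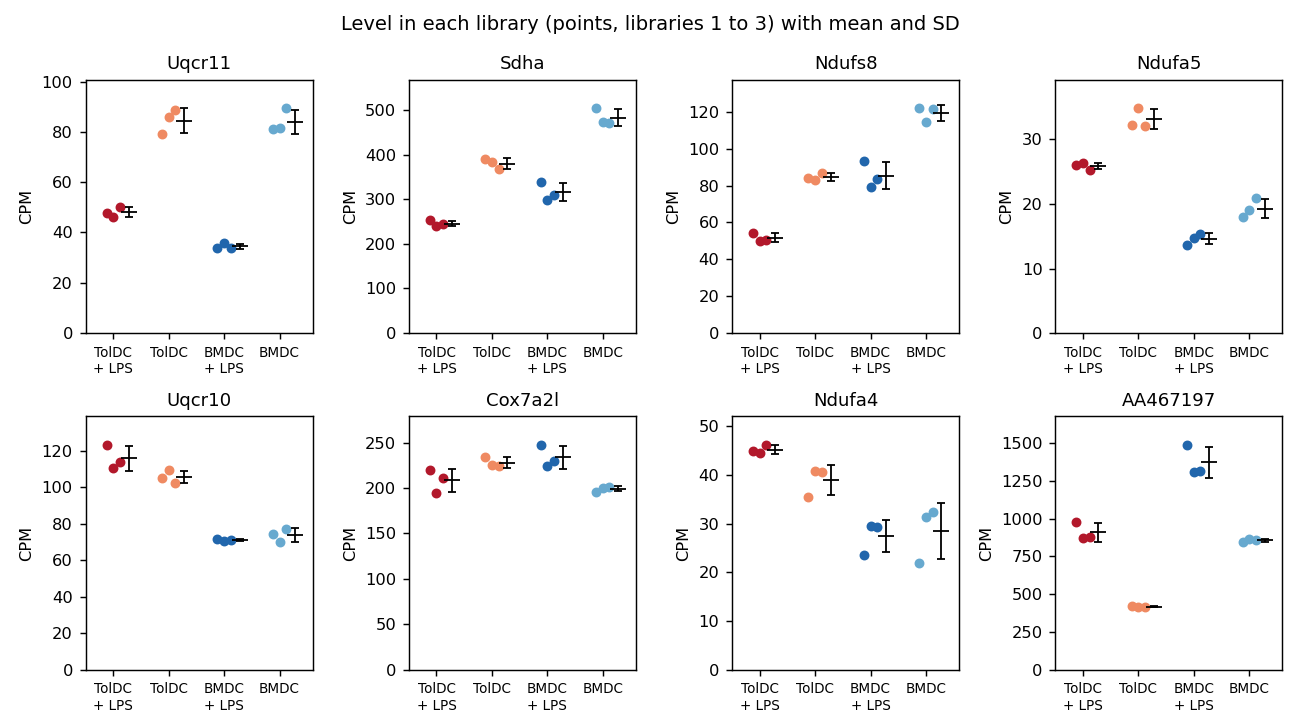
Levels in CPM (vertical axes, from 0) of 7 member genes and of AA467197 in each library, with groups from left to right TolDC with LPS, TolDC, BMDC with LPS and BMDC. Points are libraries 1 to 3, and bars are the mean and SD; Uqcr11 and Sdha are lower with LPS, Ndufs8 is lower and Ndufa5 and Uqcr10 are higher in TolDC.

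Complex IV, cytochrome c oxidase, has 20 nuclear genes by the rule, of which 15 passed the filter. With LPS 11 fell and 1 rose in TolDC (2 rose with the library number as a block), against 35.9% and 35.4% of all genes. In BMDC 11 fell and 1 rose, against 36.4% and 36.7%. Cox5a, a matrix-facing subunit, had 247, 222 and 233 CPM in TolDC with LPS and 331, 340.2 and 338 CPM in TolDC, against 279, 252 and 257 CPM in BMDC with LPS and 344, 362 and 369.7 CPM in BMDC. LPS lowered Cox5a in TolDC (−0.52 ± 0.047, adjusted p = 8.32e-09) and in BMDC (−0.45 ± 0.047, adjusted p = 7.19e-08), and the gene was lower in TolDC than in BMDC with LPS (−0.17 ± 0.047, adjusted p = 0.0038). Cox7b, a small membrane subunit, had 156, 149 and 150.3 CPM in TolDC with LPS and 209, 210.4 and 207 CPM in TolDC, against 141, 129 and 138 CPM in BMDC with LPS and 199.7, 216 and 223 CPM in BMDC. The LPS change was −0.46 ± 0.044, adjusted p = 2.21e-08, in TolDC and −0.65 ± 0.044, adjusted p = 1.65e-10, in BMDC.

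Cox7a2l, which joins complexes III and IV into supercomplexes and is known to be shortened in C57BL/6 mice, was called lower with LPS in TolDC and higher in BMDC. Ndufa1, Ndufa2 and mt-Cytb were called the opposite way, higher in TolDC and lower in BMDC. It had 219.8, 194 and 211 CPM in TolDC with LPS and 235, 225 and 224 CPM in TolDC, against 248, 224 and 229.7 CPM in BMDC with LPS and 196, 199.6 and 201 CPM in BMDC. The fall in TolDC (−0.13 ± 0.047, adjusted p = 0.0187) was lost without TolDC replicate 1 (−0.11) or TolDC with LPS replicate 2 (−0.081). LPS raised it in BMDC (0.23 ± 0.047, adjusted p = 0.000204), and the responses differed (−0.36 ± 0.066, adjusted p = 0.000209). TolDC had more Cox7a2l than BMDC without LPS (0.20 ± 0.047, adjusted p = 0.00135) and less with LPS (−0.17 ± 0.047, adjusted p = 0.00415).

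Several subunits of complex IV have a general and a tissue-restricted isoform, and the general isoform carried nearly all counts in every group. Per kilobase, Cox6a1 made up 99.1% to 99.7% of Cox6a on average in each group, Cox6b1 99.4% to 99.9% of Cox6b, and Cox7a2 94.2% to 98.0% of Cox7a. Cox6a1 had 205, 194 and 202 CPM in TolDC with LPS and 216, 227 and 234 CPM in TolDC, against 203, 193 and 196 CPM in BMDC with LPS and 234, 242 and 274 CPM in BMDC, and its LPS change was −0.17 ± 0.051, adjusted p = 0.00553, in TolDC and −0.34 ± 0.051, adjusted p = 6.9e-06, in BMDC. Cox6a2, the isoform of heart and skeletal muscle, had 1.76, 1.78 and 1.59 CPM in TolDC with LPS and 0.516, 0.571 and 1.06 CPM in TolDC, against 0.704, 0.645 and 0.719 CPM in BMDC with LPS and 0.988, 0.940 and 0.775 CPM in BMDC. It rose with LPS in TolDC (1.23 ± 0.24, adjusted p = 0.000138) with no call in BMDC (−0.39 ± 0.27, adjusted p = 0.204), and the responses differed (1.62 ± 0.36, adjusted p = 0.0013), at low levels. Cox6b1 had 176, 164 and 167 CPM in TolDC with LPS and 188, 185 and 187 CPM in TolDC, against 147, 141 and 146 CPM in BMDC with LPS and 178, 179 and 188 CPM in BMDC, and its LPS responses differed (0.19 ± 0.054, adjusted p = 0.00921). Cox6b2, known from testis, had 0.326, 0.504 and 0.495 CPM in TolDC with LPS and 0.278, 0.245 and 0.282 CPM in TolDC, against 0.950, 1.24 and 1.57 CPM in BMDC with LPS and 0.776, 1.00 and 0.775 CPM in BMDC, and was lower in TolDC with LPS (−1.47 ± 0.27, adjusted p = 9.88e-05) and without (−1.66 ± 0.33, adjusted p = 0.000237).

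Cox7a2, the general isoform, had 115, 109 and 111 CPM in TolDC with LPS and 109, 111 and 108 CPM in TolDC, against 94.01, 97.04 and 91.9 CPM in BMDC with LPS and 111, 118 and 116 CPM in BMDC. Its LPS responses differed (0.32 ± 0.055, adjusted p = 0.000103), with no call in TolDC (0.033 ± 0.038, adjusted p = 0.451) and a fall in BMDC (−0.29 ± 0.039, adjusted p = 2.08e-06). Cox7a1, the isoform of heart and skeletal muscle, had 1.40, 1.24 and 1.21 CPM in TolDC with LPS and 3.01, 3.31 and 3.21 CPM in TolDC, against 1.86, 1.47 and 1.75 CPM in BMDC with LPS and 3.88, 3.99 and 4.13 CPM in BMDC. It fell with LPS in TolDC (−1.30 ± 0.14, adjusted p = 1.56e-07) and in BMDC (−1.22 ± 0.14, adjusted p = 2.52e-07), and no library with LPS reached any library without it in the same cell type. Of the other tissue isoforms, Cox4i2 had 4 counts and Ndufa4l2 had 4 counts over all 12 libraries, and Cox7b2, Cox8b and Cox8c had 0.

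Ndufa4, first assigned to complex I and now to complex IV, was higher in TolDC. It had 44.98, 44.4 and 46.3 CPM in TolDC with LPS and 35.5, 40.9 and 40.6 CPM in TolDC, against 23.6, 29.5 and 29.3 CPM in BMDC with LPS and 21.8, 31.3 and 32.5 CPM in BMDC. TolDC exceeded BMDC with LPS (0.72 ± 0.14, adjusted p = 0.0011) and without it (0.45 ± 0.14, adjusted p = 0.0179), where the call was lost without TolDC replicate 2 (0.42) or TolDC replicate 3 (0.42). Its paralogue AA467197 (also called Nmes1), which is known in macrophages to take the place of Ndufa4 in complex IV during inflammation, is not among the 108 genes. AA467197 had 981, 871 and 877 CPM in TolDC with LPS and 421, 418 and 412 CPM in TolDC, against 1489.9, 1309 and 1318 CPM in BMDC with LPS and 842, 868 and 855 CPM in BMDC. The 4 groups did not overlap, although TolDC with LPS and BMDC lay close together. It rose with LPS in TolDC (1.13 ± 0.052, adjusted p = 4.79e-13) and in BMDC (0.68 ± 0.051, adjusted p = 6.04e-10) and was lower in TolDC with LPS (−0.59 ± 0.051, adjusted p = 7.05e-09) and without (−1.04 ± 0.051, adjusted p = 3.31e-12). The count ratio of AA467197 to Ndufa4, with no correction for length, was 19.0 to 21.8 in TolDC with LPS, 10.1 to 11.9 in TolDC, 44.3 to 63.0 in BMDC with LPS and 26.4 to 38.6 in BMDC, so that every TolDC library lay below every BMDC library.

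ATP synthase had 17 nuclear genes above the filter. With LPS 12 fell and none rose in TolDC (median −0.33), against 35.9% and 35.4% of all genes. In BMDC 15 fell and 1 rose (median −0.52), against 36.4% and 36.7%. With the library number as a block, Atp5d was also called lower with LPS in TolDC (−0.085). Atp5b, the catalytic beta subunit, had 915, 875 and 883 CPM in TolDC with LPS and 1217, 1185 and 1183 CPM in TolDC, against 1046, 969 and 978 CPM in BMDC with LPS and 1369.5, 1339 and 1351 CPM in BMDC. It fell with LPS in TolDC (−0.42 ± 0.038, adjusted p = 7.57e-09) and BMDC (−0.44 ± 0.038, adjusted p = 4.05e-09), with a difference between the responses of 0.016 ± 0.053, adjusted p = 0.839, and was lower in TolDC in both conditions (−0.16 and −0.18). Atp5f1, of the peripheral stalk, had 264, 252 and 256 CPM in TolDC with LPS and 323, 333 and 323 CPM in TolDC, against 276, 261 and 262 CPM in BMDC with LPS and 373, 386 and 386 CPM in BMDC. It was lower in TolDC without LPS (−0.23 ± 0.037, adjusted p = 3.07e-05). Atp5mpl, a small membrane subunit, had 48.5, 47.1 and 48.7 CPM in TolDC with LPS and 72.97, 83.2 and 79.1 CPM in TolDC, against 36.2, 37.1 and 36.99 CPM in BMDC with LPS and 68.8, 71.3 and 77.4 CPM in BMDC, with an LPS change of −0.71 ± 0.050, adjusted p = 3.21e-10, in TolDC and of −0.98 ± 0.053, adjusted p = 4.14e-12, in BMDC, the lowest of the complex in BMDC.

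Atp5d, the delta subunit of the central stalk, was the ATP synthase gene called higher with LPS in BMDC (0.10 ± 0.045, adjusted p = 0.045), which did not pass when the fit left out BMDC replicate 1 (0.086), BMDC replicate 2 (0.086), BMDC with LPS replicate 1 (0.086), BMDC with LPS replicate 3 (0.11), TolDC replicate 2 (0.10), TolDC replicate 3 (0.10) or TolDC with LPS replicate 3 (0.10), or with library size as the scaling. It had 219, 196 and 206 CPM in TolDC with LPS and 212, 218 and 229 CPM in TolDC, against 200.4, 191 and 195 CPM in BMDC with LPS and 178, 178 and 190.2 CPM in BMDC, and was higher in TolDC without LPS (0.27 ± 0.045, adjusted p = 3.88e-05). Subunit c, which forms the rotor ring, is made from 3 genes that encode the same mature protein. Atp5g3 had 171, 162 and 166 CPM in TolDC with LPS and 286, 281 and 267 CPM in TolDC, against 169.9, 154 and 168 CPM in BMDC with LPS and 308, 306 and 312 CPM in BMDC. Atp5g1 had 61.1, 56.7 and 61.6 CPM in TolDC with LPS and 86.4, 89.6 and 88.2 CPM in TolDC, against 44.9, 46.1 and 45.04 CPM in BMDC with LPS and 78.7, 83.4 and 93.9 CPM in BMDC. Atp5g2 had 29.1, 26.8 and 27.2 CPM in TolDC with LPS and 29.3, 29.6 and 31.05 CPM in TolDC, against 20.2, 20.4 and 18.7 CPM in BMDC with LPS and 22.1, 24.2 and 23.5 CPM in BMDC, although 38.3% of its transcript windows also occur in other genes. Per kilobase, Atp5g3 made up 72.7% ± 0.269 of the 3 in TolDC with LPS, 78.0% ± 0.938 in TolDC, 78.1% ± 1.29 in BMDC with LPS and 81.9% ± 0.839 in BMDC (SD, n = 3 each). The exon lengths used were 4912 bases for Atp5g1, 1675 for Atp5g2 and 2181 for Atp5g3, and these shares depend on them. The LPS change of Atp5g3 was −0.74 ± 0.042, adjusted p = 1.07e-11, in TolDC and −0.91 ± 0.042, adjusted p = 4.44e-13, in BMDC. The responses of Atp5g1 differed (0.35 ± 0.076, adjusted p = 0.000955), and Atp5g2 was higher in TolDC with LPS (0.49 ± 0.057, adjusted p = 4.58e-07) and without (0.37 ± 0.056, adjusted p = 1.55e-05).

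Per kilobase of exon, Cox8a of complex IV was the highest nuclear member in every group, at 439 CPM per kilobase in TolDC with LPS, 494 in TolDC, 417 in BMDC with LPS and 479.9 in BMDC. Cox6a1 came next, at 286, 322, 281 and 356 CPM per kilobase in the same groups, except in TolDC, where Cox4i1 reached 351. Median levels of the genes tested in TolDC with LPS were 111 CPM per kilobase for complex IV, 75.0 for complex III, 62.7 for ATP synthase, 50.1 for complex II, 32.4 for the complex I core, 35.5 for its accessory subunits and 5.22 for the Ndufaf factors.

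The mitochondrially encoded genes moved in both directions with LPS. Of the 8 that passed the filter, 4 rose and 2 fell with LPS in TolDC (median 0.11), against 35.4% and 35.9% of all genes. In BMDC 1 rose and 4 fell (median −0.16), against 36.7% and 36.4%. With library size as the scaling, 3 rose and 2 fell in TolDC, and the median was 0.016. With the library number as a block, mt-Nd1 was also called higher with LPS in TolDC (0.091). The block also called mt-Nd2 (−0.12) and mt-Nd3 (−0.62) lower with LPS in BMDC. In TolDC against BMDC, 4 were higher and 1 lower with LPS (median 0.11), against 34.3% and 33.7% of all genes. The block also called mt-Nd3 lower there (−0.86). Without LPS none was higher and 4 were lower (median −0.19), against 32.0% and 30.4%, and the block also called mt-Co1 lower (−0.093). These medians include mt-Nd3, which had few counts. Leaving it out, the medians with LPS were 0.14 in TolDC and −0.12 in BMDC. For TolDC against BMDC they were 0.18 with LPS and −0.20 without, and for the difference between the responses 0.35. mt-Co1, the catalytic subunit of complex IV, had 10458, 9800.1 and 9974 CPM in TolDC with LPS and 9549, 9093 and 8832 CPM in TolDC, against 13076, 11666 and 12055 CPM in BMDC with LPS and 9768, 9791 and 9721 CPM in BMDC. It rose with LPS in BMDC (0.33 ± 0.044, adjusted p = 1.63e-06), and with LPS it was lower in TolDC (−0.28 ± 0.044, adjusted p = 1.36e-05). Its rise in TolDC (0.14 ± 0.044, adjusted p = 0.00873) was lost without TolDC replicate 3 (0.11) and with library size as the scaling, and the difference between the responses (−0.19 ± 0.062, adjusted p = 0.0169) without TolDC replicate 1 (−0.16).

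mt-Cytb, the catalytic subunit of complex III, had 3784, 3792 and 3715 CPM in TolDC with LPS and 2952, 2869 and 2662 CPM in TolDC, against 3251, 3113 and 3232 CPM in BMDC with LPS and 3517, 3489 and 3335 CPM in BMDC, so that TolDC with LPS lay above the other groups and TolDC below them. It rose with LPS in TolDC (0.41 ± 0.041, adjusted p = 3.31e-08), and the responses differed (0.52 ± 0.057, adjusted p = 7.19e-07). The fall in BMDC (−0.11 ± 0.041, adjusted p = 0.023) was lost without BMDC replicate 1 (−0.096), BMDC replicate 2 (−0.10) or BMDC with LPS replicate 2 (−0.088). The mitochondrial subunits of complex I are membrane proteins of its proton-pumping arm. mt-Nd1 had 3866, 3536 and 3655 CPM in TolDC with LPS and 3619, 3427 and 3337 CPM in TolDC, against 3279, 2972 and 3071 CPM in BMDC with LPS and 3601, 3599.6 and 3566 CPM in BMDC, and mt-Nd2 had 1748, 1522 and 1691 CPM in TolDC with LPS and 1441, 1408 and 1342 CPM in TolDC, against 1571, 1388 and 1414 CPM in BMDC with LPS and 1539, 1637 and 1568 CPM in BMDC. Both were higher in TolDC than in BMDC with LPS (0.25 ± 0.044, adjusted p = 7.52e-05, for mt-Nd1; 0.18 ± 0.054, adjusted p = 0.00617, for mt-Nd2), the mt-Nd2 libraries of these groups overlapping. mt-Nd4 had 1667, 1578 and 1595 CPM in TolDC with LPS and 1283, 1241 and 1233 CPM in TolDC, against 1456, 1361 and 1385 CPM in BMDC with LPS and 1372, 1489.9 and 1449 CPM in BMDC. LPS raised it in TolDC (0.37 ± 0.041, adjusted p = 1.78e-07), and in BMDC its change was −0.037 ± 0.041, adjusted p = 0.422, which was not called. mt-Nd5 had 1420.2, 1366 and 1402 CPM in TolDC with LPS and 1509, 1384 and 1286 CPM in TolDC, against 1475, 1278 and 1311 CPM in BMDC with LPS and 1719.6, 1805 and 1626 CPM in BMDC. LPS lowered it in BMDC (−0.34 ± 0.060, adjusted p = 7.9e-05), and it was lower in TolDC than in BMDC without LPS (−0.30 ± 0.060, adjusted p = 0.000371).

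mt-Nd6, the subunit encoded on the light strand, fell with LPS in both cell types. It had 10.7, 5.62 and 8.82 CPM in TolDC with LPS and 17.3, 20.6 and 23.7 CPM in TolDC, against 12.8, 10.9 and 8.09 CPM in BMDC with LPS and 27.03, 29.1 and 27.8 CPM in BMDC. No library with LPS reached any library without it in the same cell type (−1.29 ± 0.23, adjusted p = 0.000693, in TolDC; −1.39 ± 0.23, adjusted p = 0.000374, in BMDC). These are counts of the sense strand. The opposite strand of mt-Nd6, which belongs to heavy-strand transcripts, had 693 to 1032 CPM, and for mt-Nd1 counts on the opposite strand were 0.0651% to 0.110% of the sense counts. At that share, strand error would put 0.451 to 0.834 CPM into mt-Nd6. The share differed between genes, at 0.0317% to 0.0596% for mt-Co1, 0.213% to 0.335% for mt-Cytb and 0.987% to 4.71% for mt-Nd5. Strand error and true light-strand transcripts were not told apart in these counts. The part of strand error in mt-Nd6 is therefore not settled. Counted without regard to strand, the change of mt-Nd6 in TolDC was 0.076 and was not called. Counts on the opposite (light) strand of mt-Nd5 were lower with LPS as well. They were 13.5 to 34.0 CPM in TolDC with LPS against 49.97 to 60.5 CPM in TolDC. In BMDC they were 16.0 to 32.5 CPM with LPS against 59.2 to 70.3 CPM without. Opposite-strand counts of mt-Nd2, mt-Nd3 and mt-Nd4 were lower with LPS in both cell types, and those of mt-Nd1 in BMDC. Those of mt-Co1 were higher with LPS in both (in TolDC 4.57 to 6.23 against 3.18 to 4.44 CPM). Those of mt-Cytb were higher in TolDC (11.5 to 12.7 against 8.12 to 9.28 CPM) and overlapped in BMDC. These differences were not tested.

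**Figure D4:**
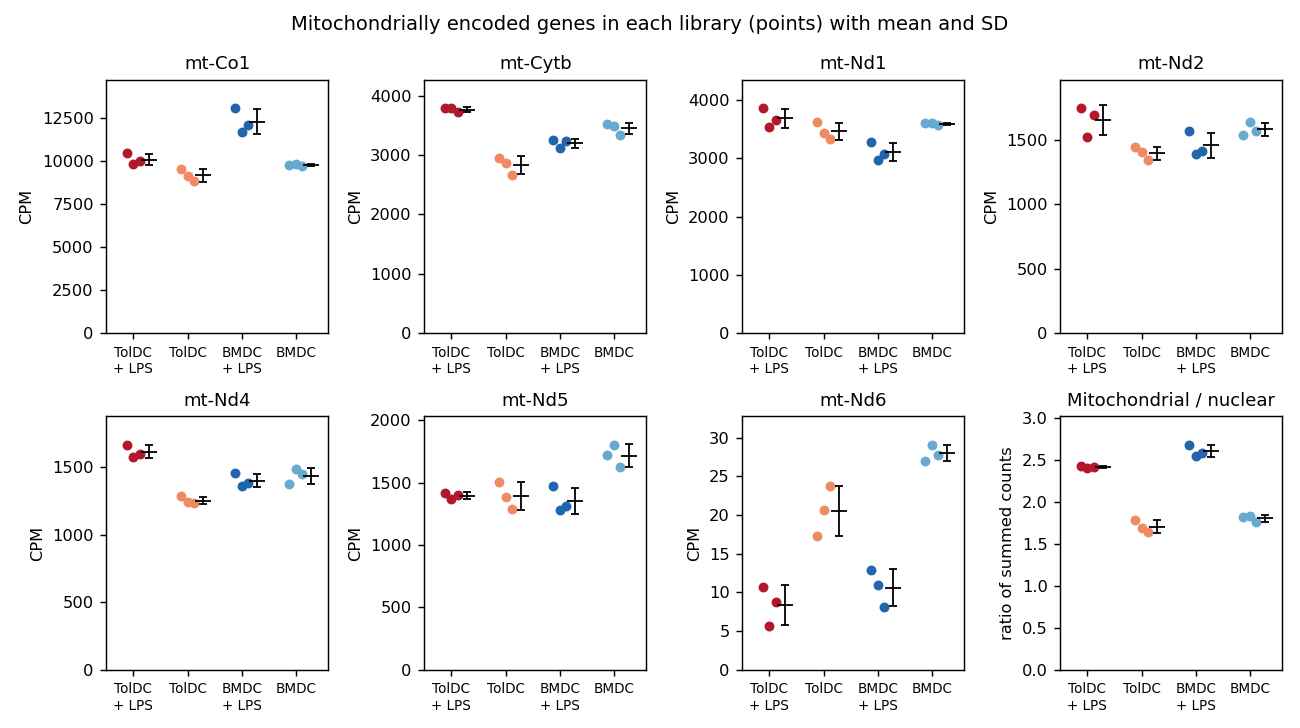
Levels in CPM (vertical axes, from 0) of 7 mitochondrially encoded genes in each library, and the ratio of all mitochondrial to all nuclear member counts, with groups from left to right TolDC with LPS, TolDC, BMDC with LPS and BMDC. Points are libraries and bars the mean and SD; mt-Nd6 is lower and the ratio higher with LPS in both cell types.

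The ratio of mitochondrially encoded to nuclear counts within a library does not depend on scaling. It averaged 2.41 ± 0.0123 in TolDC with LPS against 1.70 ± 0.0752 in TolDC, and 2.60 ± 0.0720 in BMDC with LPS against 1.80 ± 0.0399 in BMDC (SD, n = 3 each). The groups with and without LPS did not overlap, and the exact two-sided permutation test gave p = 0.1 in each cell type, the smallest that 3 against 3 libraries allow. Nuclear members took 0.879% to 0.893% of assigned reads in TolDC with LPS against 1.17% to 1.19% in TolDC. In BMDC they took 0.852% to 0.860% with LPS against 1.22% to 1.24% without. The mitochondrial share was 2.11% to 2.17% against 1.94% to 2.09% in TolDC. In BMDC it overlapped, at 2.16% to 2.30% with LPS and 2.19% to 2.25% without. Without mt-Co1 the ratio was 1.32 ± 0.00431 in TolDC with LPS against 0.904 ± 0.0420 in TolDC, and 1.20 ± 0.0238 in BMDC with LPS against 0.987 ± 0.0288 in BMDC. With LPS the ratio over all mitochondrial genes was lower in TolDC than in BMDC, and without mt-Co1 it was higher (exact p = 0.1 for both).

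The other 5 mitochondrial genes, with mt-Nd3, were nearly uncounted. mt-Co2 had 13 counts over the 12 libraries, mt-Nd4l 41, mt-Atp6 4, mt-Atp8 1, mt-Co3 1 and mt-Nd3 667, while mt-Nd1 had 1162999 and mt-Cytb 1115559. These 6 genes are contiguous, from base 7013 to base 10173 of chromosome M (GRCm38, GENCODE M21). For mt-Co2, mt-Atp6, mt-Co3, mt-Nd3 and mt-Nd4l, between 98.0% and 100% of 50-base windows occur in other annotated genes, chiefly unprocessed pseudogenes at chr1:24611535-24616197, copies of mitochondrial DNA in the nuclear genome. The copies of mt-Atp6 (Gm10925), mt-Co3 (Gm28437), mt-Co2 (Gm28661) and mt-Nd4l (Gm10222) were identical over 678, 783, 681 and 294 bases. No window of mt-Atp8, which lies between mt-Co2 and mt-Atp6, occurs in another annotated gene. Sequence outside annotated genes was not searched. Between the copies of mt-Atp6 (to chr1:24614651) and mt-Co2 (from chr1:24614885) lie bases that belong to neither, and whether they copy mt-Atp8 was not tested. Reads that match several places, 9.34% to 9.85% of each library, were left out of the counts. The start of mt-Nd3 and of its copy is shown because the copy differs from the gene at 1 of 345 bases, and that base, in capitals, lies within the first 43.
mt-Nd3: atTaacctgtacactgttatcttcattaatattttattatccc
Gm28438: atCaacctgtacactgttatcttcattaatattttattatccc

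The copies also cover 62.2% of the windows of mt-Nd4 and, with others, 51.1% of those of mt-Co1. Levels therefore cannot be compared between mitochondrial genes, and mt-Nd3, whose change with LPS in TolDC was −1.50 ± 0.35, adjusted p = 0.0019, rests on 0.751, 0.639 and 1.46 CPM in TolDC with LPS and 2.18, 2.04 and 4.05 CPM in TolDC. Its values in BMDC with LPS were 1.76, 1.80 and 1.62 CPM, against 1.76, 3.34 and 2.93 CPM in BMDC. Opposite-strand counts of mt-Nd3 were 11.1% to 244% of its sense counts. Among nuclear members, Atp5g2, Atp5o, Cox7c, Ndufa13, Ndufaf2, Ndufb6, Ndufs5 and Uqcrb share at least 20% of their windows with other genes, and their levels are uncertain. The top partner was not always a pseudogene. It was protein-coding for Ndufa13 (Tssk6, 27.1%) and Ndufb6 (Smim27, 31.6%) and antisense for Atp5o (Gm15976, 15.5%). Matches on either strand of genes outside the members were counted. Whether a partner is a copy elsewhere or overlaps the member was not tested. The share is taken over all annotated transcripts of a gene, so long transcripts can lower it and the list may be incomplete. Ndufb4 (18.3%) and Atp5l (9.99%), both at low levels, fall below the limit.

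**Figure D5:**
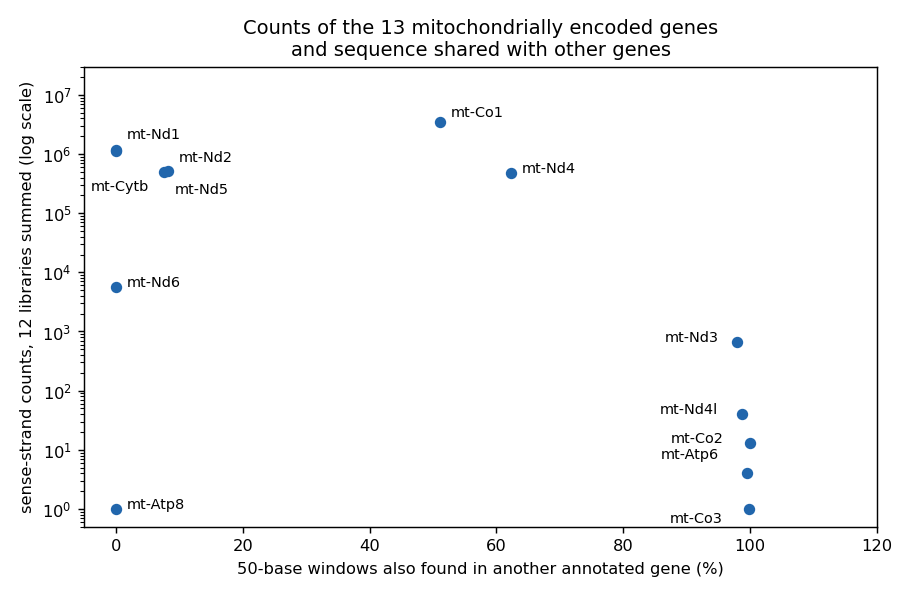
Sense-strand counts of the 13 mitochondrially encoded genes summed over 12 libraries (vertical axis, log scale) against the share of 50-base windows of each gene that also occur in another annotated gene (horizontal axis, %). The 5 genes at 98.0% or more had 1 to 667 counts, and mt-Atp8 had 1 count with no window in another annotated gene. Sequence outside annotated genes was not searched.

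Genes that build or express the chain were called in both directions, in lists of 8 to 77 genes tested. Over all genes, 35.9% fell and 35.4% rose with LPS in TolDC, and 36.4% fell and 36.7% rose in BMDC. Of 77 mitochondrial ribosomal protein genes tested, 33 fell and 18 rose with LPS in TolDC, and 45 fell and 11 rose in BMDC. With LPS 53 were higher and 3 lower in TolDC than in BMDC, against 34.3% and 33.7% of all genes. Of 24 genes of mitochondrial DNA expression, 10 fell and 5 rose in TolDC (41.7% and 20.8%), and 14 fell and 3 rose in BMDC (58.3% and 12.5%). Polg, the mitochondrial DNA polymerase, rose (1.10 ± 0.048, adjusted p = 1.88e-13, in TolDC; 1.36 ± 0.048, adjusted p = 8.04e-15, in BMDC). Hsd17b10, a subunit of mitochondrial RNase P, fell less in TolDC (−0.22 ± 0.051) than in BMDC (−1.05 ± 0.055; difference 0.83 ± 0.076, adjusted p = 6.62e-08). Among 33 assembly factors of complexes II to IV and ATP synthase, 12 fell and 9 rose in TolDC (36.4% and 27.3%), and 17 fell and 8 rose in BMDC (51.5% and 24.2%). Tmem70, needed for assembly of ATP synthase, had an LPS change of −0.034 ± 0.048, adjusted p = 0.541, in TolDC and rose in BMDC (0.79 ± 0.044, adjusted p = 7.12e-12), and was lower in TolDC with LPS (−1.55 ± 0.045, adjusted p = 9.42e-16). Sdhaf4, which helps mature Sdha, fell with LPS (−0.88 ± 0.10, adjusted p = 3.88e-07, in TolDC; −1.43 ± 0.12, adjusted p = 1.66e-09, in BMDC).

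Of 9 other complex I assembly factors, 4 fell and 1 rose in each cell type with LPS. Tmem126b, of the same assembly complex as Ndufaf1, was higher in TolDC with LPS (0.80 ± 0.059, adjusted p = 7.12e-10). The 8 nuclear regulators of respiratory genes that were tested gave 3 rises and 3 falls in TolDC (37.5% each, near the shares of all genes) and 5 rises and 2 falls in BMDC. Gabpb1, a partner of the ETS factor Gabpa, rose (1.02 ± 0.049, adjusted p = 7.74e-13, in TolDC; 1.25 ± 0.050, adjusted p = 4.33e-14, in BMDC), while Ppargc1b, a coactivator of mitochondrial genes, fell (−1.23 ± 0.10, adjusted p = 4.84e-09, in TolDC; −0.93 ± 0.097, adjusted p = 1.05e-07, in BMDC). Of 9 electron carriers and other entry points, 6 fell and 2 rose in each cell type. Gpd2, the mitochondrial glycerol-3-phosphate dehydrogenase, had an LPS change of −0.045 ± 0.050, adjusted p = 0.43, in TolDC and rose in BMDC (0.90 ± 0.051, adjusted p = 9.04e-12), a difference of −0.95 ± 0.072, adjusted p = 5.95e-09. Cycs, cytochrome c, fell in TolDC (−0.47 ± 0.047) and BMDC (−0.52 ± 0.047).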

How the data were processed

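Per the labels' protocols, RNA was purified with a column kit and made into stranded mRNA libraries. Per the submitters' processing notes, the authors used cutadapt, STAR, edgeR and limma with mm10 (GRCm38), with no versions stated there. The deposited files hold raw counts per gene. Column 4, 35.2 to 37.3 times column 3 in total, was used as the sense strand. Symbols, exon lengths and copies came from GENCODE M21 (31011 of 31054 identifiers matched) and promoters from RefSeq. All 12 libraries were fitted with edgeR 4.0.16 (R 4.3.3; filterByExpr, TMM, robust quasi-likelihood, 1 mean per group), with p-values adjusted by Benjamini-Hochberg over the 13141 genes tested within a contrast and calls below 0.05. The ± of a log2 change is its standard error. Floors of 3 counts were 0.0718 to 0.137 CPM. Genes were named by list, as the largest called rise and fall per contrast at 5 CPM or more, with isoforms, complex II and the mitochondrial genes added. Members and lists were chosen with earlier results of these data known. In each of the 4 contrasts of 2 groups, deviations of all 3 same-numbered library pairs from their group means correlated above 0.1 (0.13 to 0.47 over 12 pairs). Of the other 6 pairs, 1 had 0.091. Of the 12 libraries, 10 correlated best, on average, with libraries of their own number in other groups. The label numbers were therefore used as the block of an alternative fit, from the data and not from the labels. Libraries numbered 1 stood apart in every group, which by itself makes such deviations correlate. These correlations alone therefore do not show a pairing of libraries 2 and 3. The fit reported has no block. Blocked values are given for the counts over all members and for some lists of genes. Rows naming no gene stayed out (unmapped 1.52% to 2.11%, multiply mapped 9.34% to 9.85%, outside genes 7.10% to 8.01%, ambiguous 1.04% to 1.18% of reads). Alternatives were other scalings, no filter, unstranded counts, DESeq2, a replicate block and libraries left out. The script was tested on simulated data.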

Additional observations from a re-analysis of the deposited data

Results flagged for a closer look

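The results given here are those in which the LPS response differed between TolDC and BMDC by the test of the difference itself (edgeR, adjusted p below 0.05). Of the 97 genes tested, 57 had a higher LPS response in TolDC than in BMDC and 6 a lower one. Only the 32 of these 63 that the naming rule covers are listed, so each list below is partial. Values are log2 differences, LPS change in TolDC minus LPS change in BMDC, and none is explained here. Among the accessory subunits of complex I, of which 21 of 29 tested were called, the named ones had 0.33 for Ndufa6, 0.31 for Ndufa7, 0.30 for Ndufb11 and 0.62 for Ndufb4. For the named core subunits of complex I the differences were 0.29 for Ndufs1, −0.23 for Ndufs8 and 0.26 for Ndufv2. In the named Ndufaf factors they came to 0.48 for Ndufaf2, 0.44 for Ndufaf7 and 0.37 for Ndufaf8. The named genes of complex II gave 0.23 for Sdhb and 0.38 for Sdhc. Values for the named genes of complex III were 0.19 for Uqcr10, 0.47 for Uqcr11, 0.18 for Uqcrc1 and −0.17 for Uqcrfs1. Those of the named complex IV genes were 1.62 for Cox6a2, 0.19 for Cox6b1, 0.32 for Cox7a2, −0.36 for Cox7a2l and 0.19 for Cox7b. The named genes of ATP synthase showed −0.19 for Atp5d, 0.17 for Atp5f1, 0.35 for Atp5g1, 0.17 for Atp5g3 and 0.27 for Atp5mpl. Of the mitochondrially encoded genes, those named had −0.19 for mt-Co1, 0.52 for mt-Cytb, 0.30 for mt-Nd1, 0.36 for mt-Nd2, 0.40 for mt-Nd4 and 0.35 for mt-Nd5. Groups of 3 libraries were too small for the test of single outlying libraries.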

How the results depend on the processing

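Of 420 summary values (counts of calls and medians over 21 alternatives and 5 contrasts), 29 moved beyond the limit set, and of 5250 values for 50 named genes, 5030 kept direction and call, 105 lost the call, 113 gained it and 2 changed sign. With library size as the scaling, 7 genes were called higher with LPS in TolDC, and the medians were 0.016 (mitochondrial) and −0.30 (nuclear) in TolDC, −0.24 and −0.52 in BMDC, and 0.16 (nuclear) for the difference between the responses. Without the 4 libraries numbered 1 the medians were −0.24 (nuclear) in TolDC, −0.22 (mitochondrial) and −0.49 (nuclear) in BMDC, and 0.38 (mitochondrial) for the difference. With libraries 2 and 3 summed, an alternative chosen after seeing the data, the nuclear median in TolDC was −0.17 and 1 gene had a lower response in TolDC. Unstranded counts gave a nuclear median of −0.026 for TolDC against BMDC without LPS and a mitochondrial one of 0.18 with LPS, and changed the sign of mt-Nd6, to 0.076 for LPS in TolDC and 0.26 for TolDC against BMDC with LPS, as they add the opposite strand. With no filter the nuclear median of the difference was 0.22. The causes of the other moves were not tested.

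When single libraries were left out, calls with LPS numbered 9 to 15 higher and 56 to 64 lower in TolDC (medians 0.089 to 0.15 mitochondrial, −0.23 to −0.18 nuclear), and 5 to 6 higher and 75 to 80 lower in BMDC (−0.21 to −0.13, −0.48 to −0.43). TolDC against BMDC had 56 to 67 higher and 9 to 12 lower with LPS (0.074 to 0.17, 0.19 to 0.24), and 18 to 24 and 25 to 33 without it (−0.21 to −0.16, −0.029 to 0.0027). The difference between the responses had 52 to 61 higher and 3 to 6 lower (0.28 to 0.38, 0.17 to 0.22). Its calls of Atp5d, Atp5g3, Cox7b, Ndufv2 and Uqcr10 were lost without single libraries, Atp5d without BMDC replicate 2 (−0.17), TolDC replicate 3 (−0.16), TolDC with LPS replicate 2 (−0.15) or TolDC with LPS replicate 3 (−0.18), Atp5g3 without BMDC with LPS replicate 2 (0.13) or TolDC replicate 3 (0.15), Cox7b without BMDC with LPS replicate 2 (0.15), Ndufv2 without BMDC with LPS replicate 2 (0.23) and Uqcr10 without BMDC replicate 3 (0.17), TolDC replicate 3 (0.17) or TolDC with LPS replicate 1 (0.15).

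With the library number as a replicate block, 64 genes were lower and 15 higher with LPS in TolDC, 80 and 6 in BMDC, 67 higher and 13 lower in TolDC against BMDC with LPS, 27 and 33 without it, and 62 and 6 for the difference. No count of these moved by over 1.5 times. Of 250 values for named genes, the block lost no call and gained 13, none of them quoted in the text as without a call, and it changed no other call among them. Low counts limit Ndufb4, Cox6a2, Cox6b2, Cox7a1, mt-Nd3 and mt-Nd6.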
